A study of Arabidopsis thaliana with 4 samples.

Results

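TA31 to TA34 are 4 consecutive plates of genomic tiles that lie between a pair of stretches with high H4K20me1 log ratios, TA21 to TA30 and TA35 to TA51. They were picked by plate name, from the levels of the plates around them, and every one of their 384 wells held a value in both replicates, of 21743 tiles with a value on the array. Their level lay near the array median in both replicates. It differed by -0.377 from TA21 to TA30 and by -0.620 from TA35 to TA51 (in units of the log ratio), and from TA52 to TA99 by less than the spread between replicates. The order of the tiles also agreed little between the replicates, with a Pearson's r of 0.163 over the 4 plates. By plate, r was lowest in TA31 (0.0368) and TA32 (0.0958). TA33 (0.290) and TA34 (0.255) lay among other plates of the array, but under the median plate of TA52 to TA99 (0.427). Over the 4 plates together, values were shared by next wells within a replicate much more than between replicates.

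The data come from a project to chart chromatin marks in Arabidopsis thaliana. There was 1 group, untreated seedlings of ecotype Col-0, 10 days old, grown in liquid medium at 22 °C with 16 h of light a day. Chromatin immunoprecipitated with an Upstate antibody against H4K20me1 (IP) and unselected chromatin DNA (INPUT) were hybridised together on 2-colour tile arrays, in 2 replicates, I and II, with a dye swap for each (4 arrays). Whole seedlings were used, so a value is an average over all their cell types, and the labels do not say whether the replicates were separate cultures.

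H4K20me1 is a single methyl group on a tail lysine of H4, a core histone of the nucleosome. In Arabidopsis nuclei, immunostaining has placed this mark at chromocentres, the compact bodies formed by repeat-rich heterochromatin, whereas in animals it is known for its part in the cell cycle and in chromosome compaction. A tile on such an array reports the ratio of its DNA in the IP to that in the INPUT. Tiles here are named by plate and well. The deposited table does not pair them with genes, positions or sequences, so regions are given by plate, row and well, sorted by name, and the labelled tissue could not be checked against marker genes.

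As deposited, log ratios had a median of -1.42 (replicate I) and -1.15 (replicate II), and each replicate was centred on it. The dye-swap columns of a replicate were identical in all 21743 tiles, so that n = 2 throughout, and precision is limited by how few arrays there were. The log base, any centring by the submitters and the channel in the numerator are unknown. IP over INPUT is called the likely direction only because the upper tail is longer: after centring, the highest tiles of the array had 4.42 (replicate I) and 3.87 (replicate II), and the lowest had -1.94 and -1.80. If the ratio ran the other way, higher and lower would change places in every statement. The levels of plates were what set TA31 to TA34 apart, so their levels, calls and differences from other plates are a description and carry no test. The exact permutation test with 2 replicates could in any case give no two-sided p below 0.5.

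The 384 tiles of TA31 to TA34 had medians of 0.0968 in replicate I and -0.0486 in II, a mean level of 0.0241 ± 0.103 (SD, n = 2). The replicates lay on opposite sides of the array median and the level was within their spread of 0. In TA21 to TA30 (886 tiles) the medians were 0.485 and 0.318, so the difference of TA31 to TA34 from them was -0.388 and -0.366, with a mean of -0.377 ± 0.0154 (SD, n = 2). In TA35 to TA51 (1544 tiles) they were 0.755 and 0.532, and TA31 to TA34 differed from them by -0.658 and -0.581, with a mean of -0.620 ± 0.0545 (SD, n = 2). Both differences were larger than the spread between replicates. TA52 to TA99 (4603 tiles), the plates of set TA after the second stretch, had medians of 0.0412 and 0.0159. TA31 to TA34 differed from these by 0.0556 in replicate I and -0.0645 in II, on average -0.00442 ± 0.0849 (SD, n = 2), so the sign was not the same in both replicates.

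**Figure D1:**
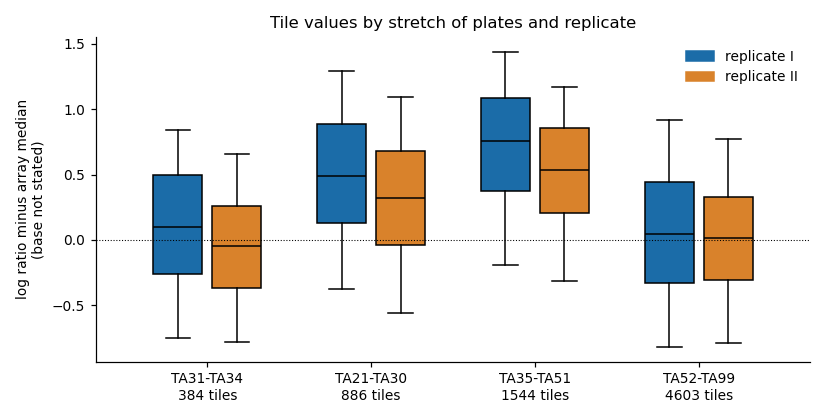
Log ratio minus the array median (base not stated) for the tiles of each stretch of plates, by replicate; boxes span the quartiles with the median as a line, and whiskers run from the 5th to the 95th percentile. The boxes of TA31-TA34 sit at the level of TA52-TA99, with medians of 0.0968 and -0.0486 in replicates I and II, and under those of TA21-TA30 and TA35-TA51.

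All 4 plates had levels near the array median. TA31 had medians of 0.0989 in replicate I and -0.0643 in II, and TA32 had 0.0672 and -0.153. TA33 had 0.0801 and -0.0137, and TA34 had 0.133 and 0.0191. The mean levels ran from -0.0429 ± 0.156 in TA32 to 0.0758 ± 0.0802 in TA34 (SD, n = 2). In all 4 plates replicate I was the higher one, and this shared offset is part of each SD. TA34 had the highest and TA32 the lowest median of the 4 in both replicates, a difference that was not tested. Among the 99 plates of set TA they ranked 49th (TA34), 52nd (TA33), 56th (TA31) and 64th (TA32) from the top. The plates just outside were TA30, with 0.401 in replicate I and 0.228 in II, and TA35, with 0.310 and 0.267. Within the stretches, TA36 with 0.227 and 0.150 and TA27 with a mean level of 0.196 came closest to TA31 to TA34. Limma on the medians of all 231 plates (Benjamini-Hochberg adjusted p at most 0.05) called 22.9% of plates higher and 25.5% lower. None of the 4 was called in either direction, with limma adjusted p-values from 0.335 for TA34 to 0.834 for TA31, and none had an unadjusted p under 0.05. The plates were chosen as those between called ones, so nothing is read from this count. All of the 10 and 17 plates in the stretches beside them were called higher, and of the 48 plates TA52 to TA99, 9 were called higher, 4 lower and 35 neither.

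**Figure D2:**
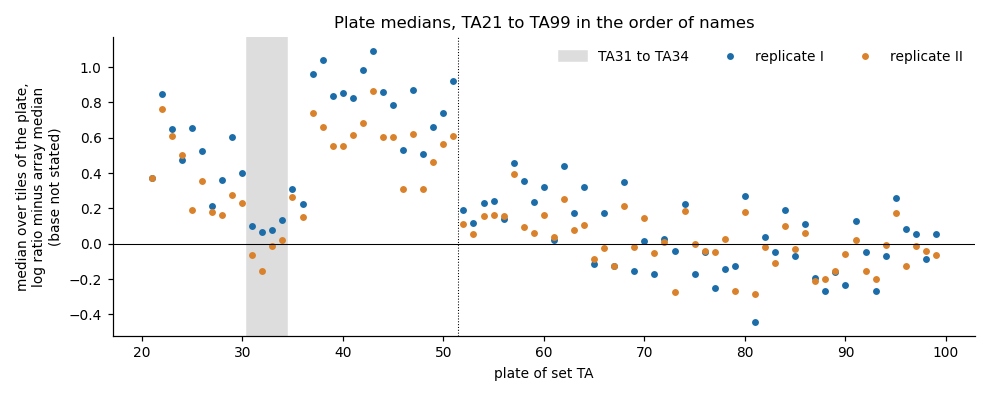
Median log ratio minus the array median (base not stated) of each plate from TA21 to TA99 in the order of names, 1 point per replicate; the grey band marks TA31 to TA34 and the dotted line the end of TA51. The 8 points in the band lie between -0.153 and 0.133, under all points of TA21 to TA30 and TA35 to TA51.

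At the edges of the gap the step depended on how many wells were compared. The first 24 wells of TA31 had medians of -0.111 (replicate I) and -0.0506 (II), against 0.661 and 0.410 over the last 24 wells of TA30, a step of -0.616 ± 0.220 (SD, n = 2). At the other end the last 24 wells of TA34 had 0.258 and 0.180, against 0.356 and 0.247 over the first 24 wells of TA35, a step of -0.0818 ± 0.0216 (SD, n = 2). With 48 wells on each side the lower step was -0.535 in replicate I and -0.274 in II (mean -0.405), and the upper step was 0.00558 and -0.103 (mean -0.0488), with no common sign. Over whole plates, 96 wells on each side, the steps were close to each other, with means of -0.297 at the lower and -0.213 at the upper edge. The larger lower step was thus seen at 24 and 48 wells but hardly over whole plates, and the difference between the steps was not tested.

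Single rows of 12 wells show that TA30 was itself uneven. TA30D, TA30E and TA30F had mean levels of 0.0646, 0.0634 and 0.168, and only the last rows of that plate were high again. TA30G had medians of 0.625 in replicate I and 0.479 in II. In TA30H, the last row before the gap, replicate I was still at 0.785 but replicate II was at 0.0244, so replicate II was low up to 1 row earlier. TA31A, the first row of the gap, had -0.111 and -0.216. The last tile of the lower stretch, TA30H12, had -0.149 and -0.0708, and the first tile of the gap, TA31A01, had -0.306 and -0.0655. These neighbours were already alike, and limma called neither (adjusted p of 0.813 and 0.670). At the upper edge, rows TA34E to TA34H had 0.310, 0.391, 0.201 and 0.332 in replicate I, and 0.103, 0.0161, 0.254 and 0.171 in replicate II, all above 0. TA34H12, the last tile of the gap, had 0.419 and 0.604 (limma adjusted p = 0.182), and TA35A01, the first after it, had 0.939 and 0.969 and was called higher (limma adjusted p = 0.0145). TA35F had 1.01 and 0.890, but TA35H was at -0.0223 and -0.0354 and the whole plate TA36 at 0.227 and 0.150, so the first plates after the gap were uneven too.

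**Figure D3:**
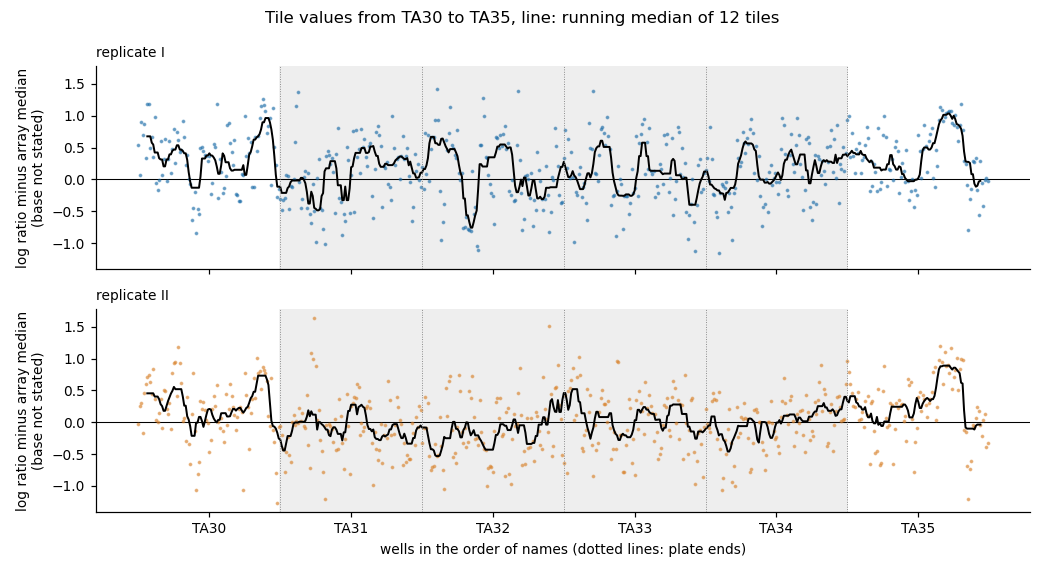
Log ratio minus the array median (base not stated) of each tile from TA30 to TA35 in the order of well names, replicate I above and replicate II below; points are tiles, the black line is the running median of 12 tiles and the grey band marks TA31 to TA34. The line drops near the start of TA31 in both replicates, moves around 0 in the band, and is high again around row F of TA35.

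Rows inside the gap matched in sign between replicates in a small majority of cases. Of the 32 rows, 10 had medians above 0 in both replicates, 8 under 0 in both, and 14 on opposite sides. In TA52 to TA99 145 of 384 rows lay above 0 in both, 123 under 0 in both and 116 on opposite sides, a larger share with matching signs. In replicate I 5 of the 32 rows of the gap had a median above 0.5 and in replicate II 1 row did, and none was above 0.5 in both. In TA21 to TA30 19 of 77 rows passed that level in both replicates, in TA35 to TA51 72 of 129, and in TA52 to TA99 11 of 384 (rows with at least 6 tiles). The highest mean level was that of TA33E, with 0.577 in replicate I and 0.239 in II (0.408 ± 0.239, SD, n = 2), followed by TA31E with 0.417 and 0.255. The lowest was TA31D, with -0.325 and -0.285 (-0.305 ± 0.0285), followed by TA32C at -0.563 and 0.000117, which was low in replicate I alone. Rows E of the 4 plates together (48 tiles) had medians of 0.482 and 0.198, and rows D had -0.132 and -0.261. These were the highest and the lowest row letter by mean level, picked after their values were seen. Rows E and D of TA52 to TA99 differed little, with 0.0487 and 0.0256 (E) and 0.0664 and -0.0123 (D), so the contrast was not seen over those plates pooled. In TA21 to TA30 rows D, with 0.267 and 0.130, also lay under rows E, with 0.362 and 0.254. In TA35 to TA51 rows E had 0.694 and 0.515 and rows D 0.691 and 0.538.

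Few single tiles stood out. Limma over all 21743 tiles (Benjamini-Hochberg adjusted p at most 0.05) called 8.24% of tiles higher and 3.88% lower than the median. In TA31 to TA34 it called 3 of 384 higher (0.781%) and 6 lower (1.56%), both under the share of the whole array. The choice of plates without a high level bears on the first of these shares, so it is only a description. TA52 to TA99, at the same level, had 171 of 4603 called higher (3.71%) and 137 called lower (2.98%). At an unadjusted p under 0.05, limma gave 31 tiles higher and 28 lower in TA31 to TA34 (8.07% and 7.29%), where the whole array gave 16.2% and 11.9%. By size, 0 tiles of the 4 plates lay above 1 in both replicates (2.83% of all tiles did) and 1 lay under -1 in both (0.419% of all tiles). Above 0.5 in both replicates lay 7 tiles (1.82%, against 10.7% of all tiles and 6.17% in TA52 to TA99), 5 of them in TA32. Under -0.5 in both lay 11 (2.86%, against 6.94% of all tiles and 5.19% in TA52 to TA99), 6 of them in TA31.

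The 2 highest tiles whose replicates had the same sign were both in TA32. TA32B08 had 1.14 in replicate I and 0.726 in II (0.933 ± 0.293, SD, n = 2, limma adjusted p = 0.0178), and TA32F06 had 1.39 and 0.465 (0.927 ± 0.653, limma adjusted p = 0.0254). The third tile called higher, TA34E06, had 0.859 and 0.692 (limma adjusted p = 0.0447) and was chosen after its values were seen. The lowest tile, TA31C07, had -1.01 in replicate I and -1.20 in II (-1.11 ± 0.134, limma adjusted p = 0.00608), and was the tile under -1 in both. TA33H06 had -1.12 and -0.961 (-1.04 ± 0.116, limma adjusted p = 0.00849). These 2 lowest tiles thus had similar values in both replicates, as had TA34E06, whereas TA32F06 rested mostly on replicate I. The remaining 4 tiles called lower had means from -0.950 to -0.775. Among them TA31F04 was less alike, with -0.604 in replicate I and -0.988 in II. Called tiles stood alone: there was no run of at least 3 wells called the same way, and the longest was the pair TA31C06 and TA31C07, both lower. In TA52 to TA99, with many more tiles, such runs of at least 3 wells held 1.61% of the tiles when called higher and 0.304% when called lower, so few were to be looked for in 384 tiles.

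The replicates were then compared tile by tile, as a description across tiles, which share 2 hybridisations and are not independent. Pearson's r between replicates I and II was 0.163 in TA31 to TA34 (Spearman's rho 0.213), against 0.568 (TA21 to TA30), 0.755 (TA35 to TA51) and 0.441 (TA52 to TA99). The high stretches were picked on the values of both replicates, and TA31 to TA34 on plate levels, which bears on the r of each. With plate medians removed r was 0.162 in TA31 to TA34, against 0.546, 0.709 and 0.398 in the same order, so removing plate levels moved these values little. By plate, r was 0.0368 in TA31, 0.0958 in TA32, 0.290 in TA33 and 0.255 in TA34. Of all 231 plates, 7 had a lower r than TA31 and 16 a lower one than TA32, whereas 92 and 74 had a lower one than TA33 and TA34. The low agreement was therefore most marked in TA31 and TA32. TA33 and TA34 lay among other plates of the array, but under the median plate of TA52 to TA99. TA28, in the first stretch, had an r of 0.0357, about that of TA31, so a low r also occurred in a plate called higher. Among TA52 to TA99, where the median r of plates was 0.427, low values occurred in TA65 (0.0404), TA79 (-0.0233) and TA81 (0.0414).

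**Figure D4:**
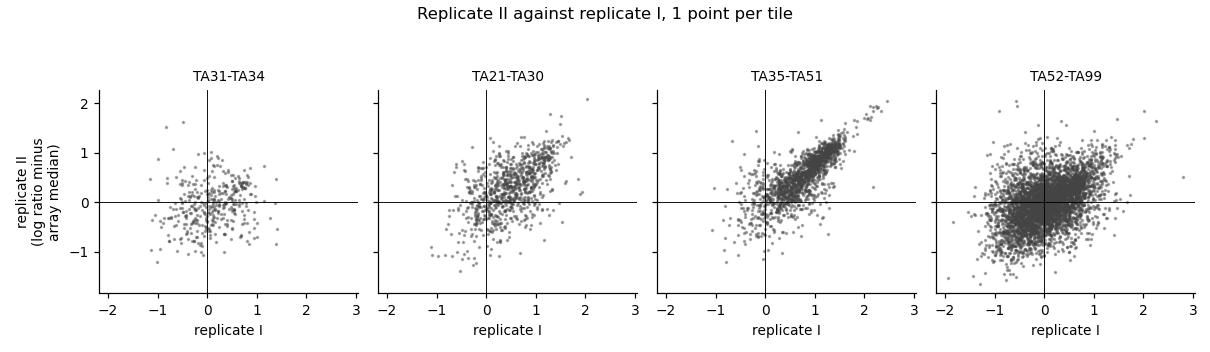
Log ratio minus the array median of replicate II against replicate I, 1 point per tile, in the 4 stretches of plates. The cloud of TA31-TA34 is nearly round (r = 0.163), and those of TA21-TA30, TA35-TA51 and TA52-TA99 are drawn out along the diagonal (r = 0.568, 0.755 and 0.441).

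The spread of tiles within a replicate was not small in TA31 to TA34. The standard deviation between tiles was 0.507 in replicate I and 0.452 in II, against 0.539 and 0.471 in TA52 to TA99. The mean of both replicates varied less, with a standard deviation between tiles of 0.366, against 0.429 in TA52 to TA99. The difference between replicates, I minus II, varied more, with 0.622 against 0.537 in TA52 to TA99 and 0.564 over all tiles. Among the 4 plates this spread was largest in TA32 with 0.727. A difference of more than 1 in either direction occurred in 38 tiles of TA31 to TA34 (9.90%). The share was 6.84% in TA52 to TA99 and 8.18% over all tiles. The replicates lay on opposite sides of the median in 157 tiles (40.9%), against 34.5% in TA52 to TA99 and 32.7% over all tiles. In both replicates 119 tiles were above 0 and 108 under 0. In 104 of the 157 tiles it was replicate I that lay above 0. The median difference, I minus II, was 0.188 in TA31 to TA34, against 0.204 (TA21 to TA30), 0.216 (TA35 to TA51) and 0.0949 (TA52 to TA99), so replicate I was higher by a similar amount in the gap and in the stretches around it.

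Tiles with opposite values came in blocks, most of them in TA31 and TA32. Replicate I was above 0 and replicate II under 0 in 9 runs of at least 4 consecutive wells, which held 46 tiles (11.98%), and the reverse occurred in 1 run of 4 wells. In TA52 to TA99 the runs of the first kind held 1.76% of the tiles and those of the second 1.41%. Signs were taken against 0, and the median difference, I minus II, was 0.188 in TA31 to TA34 against 0.0949 in TA52 to TA99. The part of this offset in the contrast was not tested. From TA32A07 to TA32A12, 6 wells averaged 0.849 in replicate I and -0.585 in II. In this run TA32A11 had the highest value of replicate I in the 4 plates, 1.42, and -0.531 in replicate II. From TA31B10 to TA31C01, 4 wells had -0.561 in replicate I and 1.15 in II, among them TA31B12 with the highest value of replicate II, 1.63, and -0.496 in replicate I. These runs and tiles were chosen after their values were seen. Their opposite signs follow from that choice.

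Runs with the same sign in both replicates were short. The longest above 0 had 7 wells, TA33C01 to TA33C07, with means of 0.703 in replicate I and 0.282 in II. The longest under 0 had 6 wells, TA34A11 to TA34B04, with -0.178 and -0.542. In TA52 to TA99 the longest such runs had 24 wells above and 15 under 0, and in TA35 to TA51 one of 100 wells lay above 0. TA31 to TA34 hold fewer tiles than any of these stretches and so had fewer chances of a long run. Runs of at least 3 wells above 0 held 18.0% of the tiles of TA31 to TA34 and those under 0 held 18.8%, against 19.6% and 15.7% in TA52 to TA99, so that short runs were about as common.

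Next wells resembled each other within each replicate. Across 380 pairs of next wells of the same plate, r was 0.508 in replicate I and 0.442 in II, against 0.455 and 0.437 in TA52 to TA99. With plate medians removed these were 0.507 and 0.440, against 0.390 and 0.393. When a well of replicate I was paired with the next well of replicate II, or the reverse, r averaged 0.0656 in TA31 to TA34, against 0.238 in TA52 to TA99, 0.472 in TA21 to TA30 and 0.544 in TA35 to TA51. With plate medians removed it was 0.0647, against 0.174, 0.439 and 0.458 in the same order. The difference between replicates was itself shared by next wells, with r = 0.493 in TA31 to TA34. In TA21 to TA30, TA35 to TA51 and TA52 to TA99 this r was 0.406, 0.379 and 0.376. Among the 4 plates it was highest in TA32 (0.595). The highest plates of the other stretches had 0.557 (TA26), 0.656 (TA51) and 0.577 (TA59). At 4 wells apart r was 0.0279 and -0.0317 within replicates I and II of TA31 to TA34, against 0.169 and 0.131 in TA52 to TA99. With plate medians removed these were 0.0269 and -0.0395, against 0.0707 and 0.0617. Wells next to each other down a column, 12 apart in the order of names (336 pairs), had an r of -0.0949 in replicate I and -0.0356 in II. In TA52 to TA99 r at that distance was 0.103 and 0.0832. In TA31 to TA34 next wells in the order of names were thus alike, and neighbours down a column were not. Since r along the order was already 0.0279 and -0.0317 at 4 wells, direction on the plate and distance in the order cannot be told apart. What gave next wells a shared difference between replicates was not tested.

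**Figure D5:**
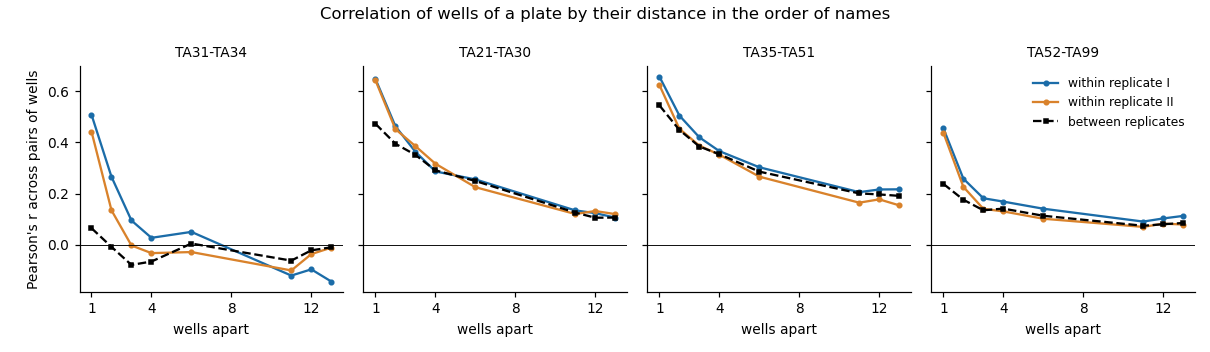
Pearson's r across pairs of wells of the same plate against the number of wells between them in the order of names, within replicate I, within replicate II and between replicates (mean of both directions). In TA31-TA34 the line between replicates starts at 0.0656, far under the 0.508 and 0.442 within replicates, and in the other stretches it lies closer to them.

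The filling of the plates, which the choice of plates did not use, also differed along the order of names. All 96 wells of each of the plates TA31 to TA34 held a value. In TA21 to TA30 74 of 960 wells had no tile with a value, and 2 of the 10 plates were full, with TA22 the emptiest at 60 tiles. In TA35 to TA51 88 of 1632 wells had none, and 15 of 17 plates were full, with TA39 the emptiest at 42. In TA52 to TA99 5 of 4608 wells had none. Over the whole array 21761 tiles were named and 21743 of them had a value. Most of the 74 and of the 88 wells therefore had no tile named on the array, rather than a tile whose value was missing. The gap was thus as completely filled as most of the later plates, whereas 8 of the 10 plates TA21 to TA30 had wells with no value.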

How the data were processed

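The submitters' table holds 1 value per spot and array, and the deposited values are treated as a score, a log ratio of unstated base (range -3.36 to 3.002 in replicate I). The scanner, background correction and normalization were not given in the sources used here, and the paired dye-swap columns were identical in all 21743 tiles and gave 1 value per replicate. The members, lists and comparisons were chosen with earlier results of these data known.

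The median over all tiles was subtracted from each replicate, with no loess or quantile step. Tiles and, separately, plate medians were tested against 0 with limma (version 3.58.1, R version 4.3.3; an intercept fitted by lmFit, then eBayes, Benjamini-Hochberg over all tiles or all plates, threshold 0.05, two-sided, 1 residual degree of freedom, prior degrees of freedom 21.7 for tiles and 4.63 for plates). P-values reflect no more than the spread of these samples, possibly a technical one. The fit was tried on simulated data (10 draws of 21743 tiles, 200 of them changed, independent noise). It found 0.25%, 17.8% and 99.8% of changes of 0.5, 1 and 2. Of its calls there, 35%, 10.9% and 11% were false, above the nominal share. In the real data limma called 1792 tiles higher and 844 lower, and next wells were alike. The simulation differed in both respects, so it cannot say how many real changes were found or how many tile calls are false. Whether tile calls keep to the threshold is thus unknown, and they are to be read with caution. The named tiles were the 2 highest and 2 lowest means with the same sign in both replicates and the tiles at each edge. Runs of at least 3 called wells were to be named too. Alternatives were other centring, scaling, thresholds, summaries, edge widths and well orders, and leaving out each replicate. Python 3.11.15, pandas 2.3.3 and matplotlib 3.10.9 were used otherwise.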

Additional observations from a re-analysis of the deposited data

How the results depend on the processing

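Of 103 alternatives for 18 results, 69 moved a value by less than the spread between replicates (for the correlation of the replicates, within its 95% interval) or a count by less than 1.5 times. That interval takes tiles as independent, which they are not, so for the correlation it is no measure of stability. Of the 69, 22 leave out 1 of 2 replicates, which cannot move a mean by more than its SD, so they say nothing of stability. The differences from TA21 to TA30 and from TA35 to TA51 moved by less than that spread with equal median absolute deviations and with means. Without centring the median levels were -1.26 over TA31 to TA34, and -1.27, -1.33, -1.25 and -1.21 in TA31, TA32, TA33 and TA34. That setting gave 0 tiles higher and 364 lower, 4 plates lower, and 199 tiles under -1 in both replicates, since most deposited values lie under 0. Centred on the median of set TA, which holds the high stretches, the level was -0.0971 over TA31 to TA34, and -0.104, -0.0880 and -0.0454 in TA31, TA33 and TA34. The 3 tiles called higher became 0 with plate means removed, 0 with equal median absolute deviations, 6 with a trend and robust prior and 0 at an adjusted p of 0.01. The 6 called lower became 3 with centring on the mode, 0 with plate means removed, 0 with equal deviations, 15 with a trend and robust prior and 2 at 0.01. Limma had 24 higher and 29 lower tiles with plate means removed, and 27 and 22 with equal deviations, at an unadjusted p under 0.05, and without centring 0 higher. The shares of all tiles called under these other settings are not given here. The counts therefore cannot be set against the array and show only how far calls depend on the setting. For 0.5 in place of 1 the tiles above and under in both replicates were 7 and 11. Single replicates gave 4 to 7 above 1 and 4 to 5 under -1, and centring on the mode gave 0 under -1. The correlation of next wells, 0.475, was -0.0736 with wells read down columns. The step at the upper edge, -0.0818, was -0.0488 with 48 wells and -0.0554 with means. With 96 wells, a width added after the data were seen, it was -0.213, and the step at the lower edge, -0.616, was -0.297. Except where stated, the cause was not tested.

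No paired analysis was possible because all samples form 1 group. Log ratios alone do not give the signal over background, and with n = 2 the tile calls depend on the prior.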
